A study of Homo sapiens with 145 samples.

Results

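In the HT-1080 line, 3 exposures raised CDKN1A, the gene of the cell cycle inhibitor p21, to a like degree, and their remaining responses were set against each other. They were 0.03 µM etoposide (ETP), which traps topoisomerase II on broken DNA, 100 µM methyl methanesulfonate (MMS), which methylates DNA bases, and 30 µM quercetin (QUE), a plant flavonol. Each dose was set against the DMSO vehicle arrays of its own chemical, and the responses were then subtracted from each other, so that every value between chemicals is a difference of 2 responses. HT-1080 is a tumour cell line from a human fibrosarcoma that keeps wild-type p53. All cells were grown in 24-well plates, attached overnight in medium with serum, and were exposed for 24 h, the vehicle cells included. DMSO was the solvent in the dosed cells too.

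The comparison used 32 of the 145 arrays of the series. ETP had 5 dosed and 5 vehicle arrays, MMS had 6 and 6, and QUE had 5 and 5. The doses were picked on the CDKN1A response itself, so that response is described here and not tested, and the rise of other p53 targets at these doses is not independent of the choice. ETP and QUE arrays numbered 2 were left out because they responded like the other chemical. Across the 12070 genes measured, the response of the ETP array numbered 2 had r = -0.28 with the mean response of the other ETP numbers and 0.40 with that of QUE, while the other ETP arrays had 0.48 to 0.70 and 0.05 to 0.11. The QUE array numbered 2 had r = 0.67 with the ETP response and 0.10 with that of QUE, and the other QUE arrays had -0.06 to 0.22 and 0.79 to 0.92. Results that lose their call when these arrays are kept in are given with both values.

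The deposited values are log2 levels, on which 1 unit is a doubling. Array medians did not overlap between chemicals: ETP arrays had 3.52 to 3.56, MMS arrays 3.11 to 3.14 and QUE arrays 3.34 to 3.37. Levels were therefore not compared across chemicals, and the chemical and the experiment it was run in cannot be told apart. Where ETP and QUE vehicle arrays bore the same number, their deviations from the 2 group means were correlated (mean r = 0.56 over 5 pairs, against -0.13 between different numbers), and MMS vehicle arrays did not share this with ETP (0.01). The labels do not say that numbers stand for separate cultures, so p-values measure the spread between these samples, which may be technical. The 12 mesenchymal markers measured, of 13, had an array mean of 10.6 to 11.4. Of 10 blood and endothelial markers 1 was measured, at 3.15 to 4.17 around the level of 4 taken as background. Of 10 epithelial markers only KRT8 and KRT18 were measured.

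The p53 protein is a transcription factor that is stabilised when DNA is damaged, and it then switches on genes for cell cycle arrest (CDKN1A), for its own removal (MDM2) and for cell death (FAS). The p21 protein keeps the retinoblastoma family active, which in turn represses genes of DNA replication through E2F sites and genes of mitosis through cell cycle homology regions. Other stress pathways run beside it: NRF2 answers electrophiles and oxidants, ATF4 answers amino acid shortage and a stressed endoplasmic reticulum, and NF-kB drives inflammatory cytokines.

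CDKN1A rose by about the same amount in all 3 exposures, which is what chose them. Its level in the ETP vehicle arrays was 8.83, 9.10, 8.90, 9.11 and 8.61, and in the ETP arrays 9.77, 9.74, 9.45, 9.79 and 9.74. The MMS vehicle arrays had 8.67, 8.48, 8.29, 8.46, 8.20 and 8.31, and the MMS arrays 9.04, 9.13, 8.96, 9.20, 9.11 and 9.10. The QUE vehicle arrays had 8.41, 8.53, 8.73, 8.55 and 8.53, and the QUE arrays 9.45, 9.53, 9.13, 9.00 and 9.06. Every dosed array lay above every vehicle array of its chemical. The mean response to ETP was 0.79, to MMS 0.69 and to QUE 0.68. The difference between responses was -0.11 for QUE minus ETP, -0.01 for QUE minus MMS and 0.10 for ETP minus MMS. The neighbouring doses lay on either side: CDKN1A moved by 0.32 and 1.17 at ETP 0.01 and 0.1 µM, by 0.39 and 1.35 at MMS 30 and 300 µM, and by 0.12 and 1.26 at QUE 10 and 60 µM. With the arrays numbered 2 the 3 responses were 0.61, 0.69 and 0.75.

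**Figure D1:**
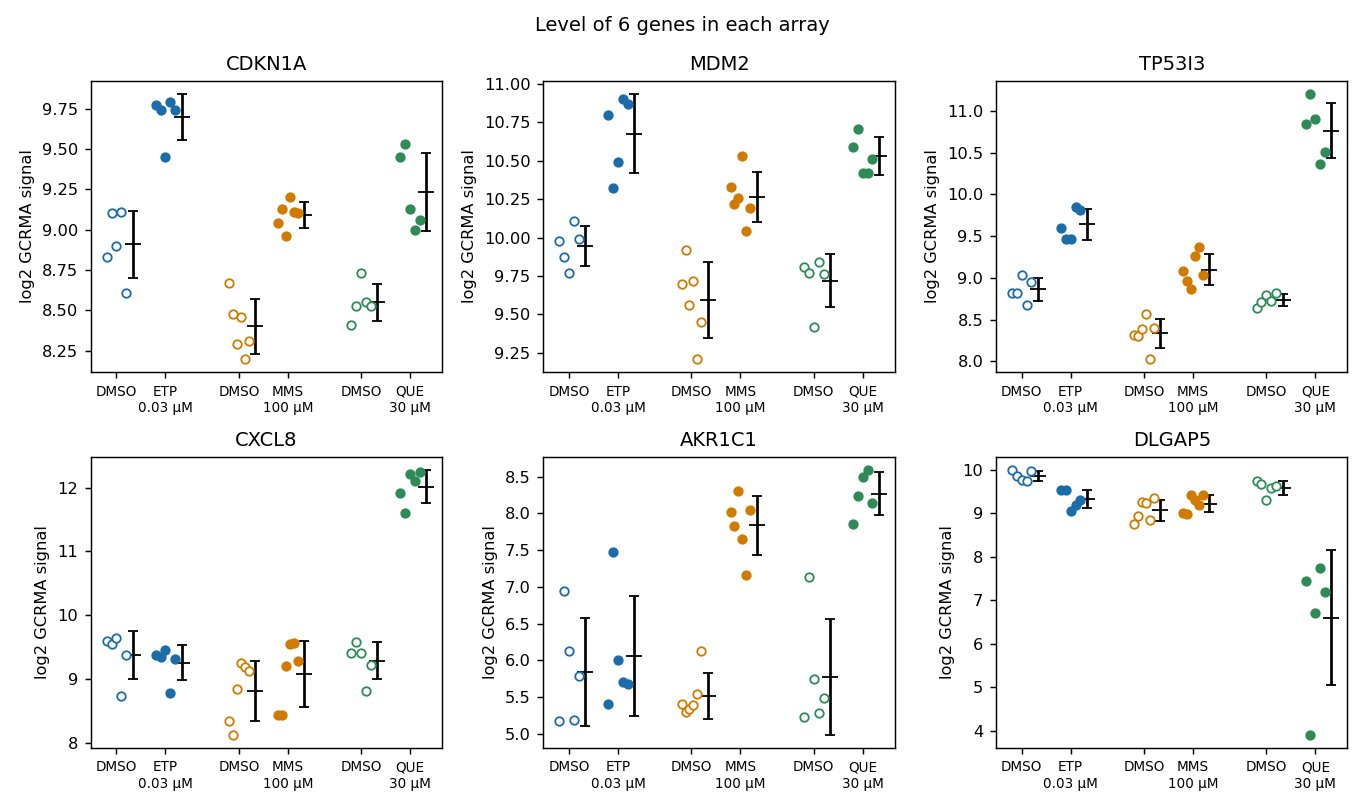
Log2 level of 6 genes in each of the 32 arrays, by chemical, with open points for DMSO vehicle, filled points for the dosed arrays, and bars at the group mean ± SD (n = 5 or 6). CDKN1A and MDM2 shifted alike in the 3 chemicals, while TP53I3 and CXCL8 shifted most with QUE, AKR1C1 with MMS and QUE, and DLGAP5 fell with QUE, where 1 array stood at 3.91.

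A like rise of CDKN1A went with very unlike numbers of changed genes. A gene was called changed at a limma adjusted p (Benjamini-Hochberg) under 0.05 and at least 1.5-fold. ETP changed 55 of 12070 genes (0.456%), 40 higher (0.331%) and 15 lower (0.124%). MMS changed 226 (1.87%), 53 higher (0.439%) and 173 lower (1.43%). QUE changed 2239 (18.6%), 1116 higher (9.25%) and 1123 lower (9.3%). CDKN1A was among the strongest responses to ETP, where 19 genes had a larger value (16 of them called), and to MMS, where 35 did (32 called), whereas with QUE 833 did (827 called). The SD of the log2 responses over all genes was 0.20, 0.22 and 0.51, and the median of all genes was at most 0.02 from 0.

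The pairwise differences followed the same order. QUE minus ETP differed in 2157 genes (17.9%), 1008 higher (8.35%) and 1149 lower (9.52%). QUE minus MMS differed in 2083 (17.3%), 1133 higher (9.39%) and 950 lower (7.87%). ETP minus MMS differed in 291 (2.41%), 197 higher (1.63%) and 94 lower (0.779%). With the replicate number as a block, ETP changed 179 genes (1.48%) and ETP minus MMS differed in 883 (7.32%), while the other 4 counts moved by less than 1.5 times. The block called 63 higher (0.522%) and 116 lower (0.961%) for ETP, 63 higher (0.522%) and 232 lower (1.92%) for MMS, 364 lower (3.02%) for ETP minus MMS, 1137 higher (9.42%) and 1254 lower (10.4%) for QUE minus ETP and 1043 lower (8.64%) for QUE minus MMS. Keeping the arrays numbered 2 gave 17 for ETP (0.141%), 0 of them lower (0.0%), 1071 for QUE minus ETP (8.87%), 586 of them lower (4.86%), and 63 for ETP minus MMS (0.522%), 54 higher (0.447%) and 9 lower (0.0746%). With these arrays MMS lowered 125 genes (1.04%) and QUE raised 798 (6.61%) and lowered 863 (7.15%). The ETP count also hung on single arrays: it was 110 without ETP array 1, 108 without QUE array 3, 30 without ETP array 5 or 6, 33 without ETP vehicle array 1 and 36 without ETP vehicle array 6. ETP minus MMS went from 291 to 533 without ETP array 1, 478 without QUE array 3 and 167 without ETP vehicle array 1.

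**Figure D2:**
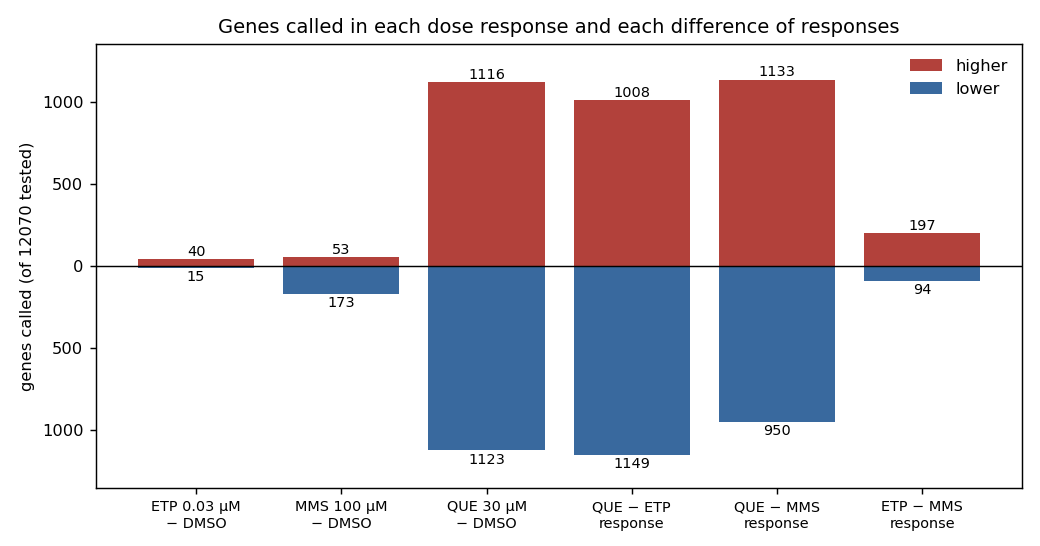
Number of genes called higher (up) and lower (down) of 12070 for each response and each difference of responses. The bars for QUE and for differences that include QUE hold 2083 to 2239 genes, those for ETP, MMS and their difference 55 to 291.

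The response shared by all 3 chemicals was small. Of 12070 genes 13 (0.108%) were called in all 3, each of them higher, and 7 of the 13 are on the p53 list, CDKN1A included. They were ACER2, AKR1B10, CCDC148, CDKN1A, FAS, MDM2, NECTIN4, PHLDA3, PLCXD2, PSTPIP2, SUGCT, TP53I3 and TP53INP1. The count was 11 to 14 without any 1 array and 10 with the arrays numbered 2. ACER2 and AKR1B10 lay below the background level in at least 1 vehicle group and CCDC148 in all 6 groups, so the size of their change is uncertain. With the arrays numbered 2, the ETP values of PLCXD2 (0.67), PSTPIP2 (0.66) and CCDC148 (0.58) were not called. PHLDA3 was not called for ETP without ETP array 6 (0.70), nor for MMS without MMS array 2 or MMS vehicle array 4, 5 or 6 (0.52 to 0.57). PLCXD2 lost its ETP call without any 1 of 7 ETP or ETP vehicle arrays.

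MDM2, the ubiquitin ligase that marks p53 for destruction, moved almost as evenly as CDKN1A although it did not choose the doses. Its ETP vehicle arrays were 9.98, 9.87, 9.77, 10.11 and 9.99 and its ETP arrays 10.80, 10.32, 10.49, 10.90 and 10.87. Its MMS vehicle arrays were 9.70, 9.92, 9.56, 9.72, 9.21 and 9.45 and its MMS arrays 10.33, 10.22, 10.26, 10.53, 10.04 and 10.19. Its QUE vehicle arrays were 9.81, 9.77, 9.42, 9.84 and 9.76 and its QUE arrays 10.59, 10.71, 10.42, 10.42 and 10.51. Dosed and vehicle arrays did not overlap in any of the 3. MDM2 rose by 0.73 ± 0.11 (SE) with ETP (limma adjusted p = 0.00038), 0.67 ± 0.10 with MMS (8.7e-05) and 0.81 ± 0.11 with QUE (8.1e-07). The intervals of its differences ran from -0.25 to 0.41 for QUE minus ETP, from -0.17 to 0.46 for QUE minus MMS and from -0.25 to 0.38 for ETP minus MMS, so a difference of 1.5-fold (0.585 on this scale) lay outside each.

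TP53INP1, a p53 cofactor in stress and autophagy, rose by 1.16 with ETP, 0.64 with MMS and 1.27 with QUE. SUGCT, an enzyme of glutarate metabolism, rose by 1.11, 0.76 and 1.29, and NECTIN4, an adhesion protein, by 1.19, 1.68 and 1.62. For NECTIN4 the MMS response was the largest of the 3, but ETP minus MMS was -0.49 (95% interval -1.11 to 0.13) and QUE minus MMS -0.06 (-0.68 to 0.57). FAS, the death receptor, rose by 0.81, 0.91 and 1.51. QUE exceeded ETP for FAS by 0.70 ± 0.18 (limma adjusted p = 0.004).

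Of 39 p53 targets other than CDKN1A, 33 were measured. ETP raised 13 of them and MMS 10, both with none lower, and QUE raised 20 with none lower, against 0.331%, 0.439% and 9.25% of all genes. Over the 33, the median ETP response was 0.51, the MMS response 0.39 and the QUE response 0.74, while over all genes they were 0.02, 0.00 and 0.00. The mean level of the 33 lay at 8.46 to 8.63 in ETP vehicle arrays and 8.88 to 9.14 in ETP arrays. MMS vehicle arrays had 8.01 to 8.20 and MMS arrays 8.38 to 8.55, and QUE vehicle arrays had 8.28 to 8.44 and QUE arrays 9.00 to 9.24. None of these ranges overlapped within a chemical. Between chemicals, QUE was above ETP in 9 of the 33 and below it in 2, against 8.35% and 9.52% of all genes. QUE was above MMS in 11 and below it in 0, against 9.39% and 7.87%. ETP was above MMS in 1, against 1.63%. That gene was SPATA18, also among the 11, whose MMS arrays and their vehicle were below background. The 95% interval of the difference lay wholly within 1.5-fold for 13, 13 and 23 of the 33. Over all 12070 genes it did so for 5288, 5665 and 7634. For ETP against MMS 23 targets were thus alike to that limit, as were most genes. With the arrays numbered 2, the ETP minus MMS count was 0 and QUE was below ETP in 1, and the ETP minus MMS count was 0 or 1 without any 1 array.

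For 3 further members, chosen after their values were seen, the largest of the 3 responses was not that to QUE. No difference between chemicals was called for any of these 3 genes, so the order is a description. DDB2, which recognises ultraviolet damage, rose by 0.62 ± 0.09 with ETP and 0.67 ± 0.08 with MMS, and stood at 0.34 with QUE. Its ETP value was 0.54 and not called with the arrays numbered 2. SESN1, a sensor that restrains growth signalling, rose by 0.79 with ETP, was at 0.47 with MMS and rose by 0.62 with QUE (0.56, not called, without QUE vehicle array 1). PPM1D, the phosphatase that switches p53 signalling off, rose by 0.87 with MMS, was at 0.62 with ETP (0.51, not called, with the arrays numbered 2, and 0.57, not called, without ETP array 6) and at 0.54 with QUE.

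PURPL, a long noncoding RNA that p53 induces, was also picked after its values were seen, because its promoter window held a full p53 site. Of 9902 tested genes with a promoter in the RefSeq table, 4 (0.0404%) held a pair of p53 half-sites with up to 13 bases between them, searched on both strands from 250 bases before to 50 after the start. The table gives the window on build GRCh38.p14 at chr5:27472042-27472341, plus strand. It is shown because PURPL is 1 of the 2 genes among 33 raised by ETP (6.06%) that hold such a pair, and capitals mark the pair of half-sites, which begins 127 bases before the start.
PURPL: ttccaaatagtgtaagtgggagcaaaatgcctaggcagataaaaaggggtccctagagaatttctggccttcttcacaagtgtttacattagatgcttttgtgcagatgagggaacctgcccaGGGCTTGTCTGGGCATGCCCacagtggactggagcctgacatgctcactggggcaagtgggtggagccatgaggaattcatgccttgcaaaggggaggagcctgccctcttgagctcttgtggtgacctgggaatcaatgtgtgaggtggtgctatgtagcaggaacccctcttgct
Its level was 5.49, 5.54, 5.49, 6.43 and 5.68 in ETP vehicle arrays and 6.67, 6.05, 6.89, 7.12 and 6.93 in ETP arrays, which overlapped. The QUE vehicle arrays had 4.41, 5.19, 5.01, 5.57 and 4.95, and the QUE arrays 6.17, 6.38, 6.59, 6.57 and 6.41, all higher. PURPL rose by 1.40 ± 0.23 with QUE (limma adjusted p = 8.3e-06) and by 1.01 ± 0.23 with ETP (0.020), and was at 0.66 with MMS. The ETP call was lost with the arrays numbered 2 and without any 1 of 5 ETP or ETP vehicle arrays (0.91 to 1.00, adjusted p up to 0.10). None of the 27 p53 list members with a promoter held such a pair in this window.

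Where p53 targets differed, QUE was mostly the larger. TP53I3, a quinone oxidoreductase, gave the clearest case. In ETP vehicle arrays it was 8.82, 8.82, 9.04, 8.68 and 8.95, and in ETP arrays 9.60, 9.47, 9.47, 9.85 and 9.81. In MMS vehicle arrays it was 8.31, 8.30, 8.39, 8.57, 8.03 and 8.40, and in MMS arrays 9.08, 8.96, 8.87, 9.26, 9.37 and 9.04. In QUE vehicle arrays it was 8.64, 8.71, 8.80, 8.72 and 8.82, and in QUE arrays 10.84, 11.20, 10.90, 10.37 and 10.51. All 3 dosed groups were apart from their vehicle, and the QUE arrays were the farthest. TP53I3 rose by 0.78 ± 0.12, 0.76 ± 0.11 and 2.02 ± 0.12. QUE exceeded ETP by 1.25 (95% interval 0.91 to 1.59, limma adjusted p = 1.2e-06) and MMS by 1.26 (0.94 to 1.59, 4.6e-07), and ETP minus MMS was 0.01 (-0.31 to 0.34).

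GDF15, a secreted stress cytokine, was at 0.57 ± 0.20 with ETP and 0.32 ± 0.18 with MMS and rose by 1.52 ± 0.20 with QUE. QUE exceeded ETP by 0.94 (limma adjusted p = 0.012) and MMS by 1.20 (0.0011). SPATA18, a mitochondrial quality control protein, rose by 0.96 with ETP and 2.10 with QUE, and QUE exceeded ETP by 1.13 ± 0.21. Its MMS arrays and their vehicle were below background, at 3.00 to 3.67. PMAIP1, the cell death protein NOXA, was at -0.10 with ETP and 0.12 with MMS and rose by 0.99 ± 0.19 with QUE. GADD45A, a growth arrest gene picked after its values were seen, followed the same pattern at 0.26, 0.30 and 1.07. Both p53 targets that were lower in QUE minus ETP, BAX and PLK2, were named after seeing this count. BAX, which opens the mitochondrial outer membrane, was at 0.46 with ETP and -0.40 with QUE, and the difference of -0.86 ± 0.16 was called (limma adjusted p = 9.7e-05). PLK2, a kinase of centriole duplication, was at 0.33 and -0.32. Its difference of -0.65 became -0.48 and was not called with the arrays numbered 2, and -0.57 and not called without ETP vehicle array 1.

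**Figure D3:**
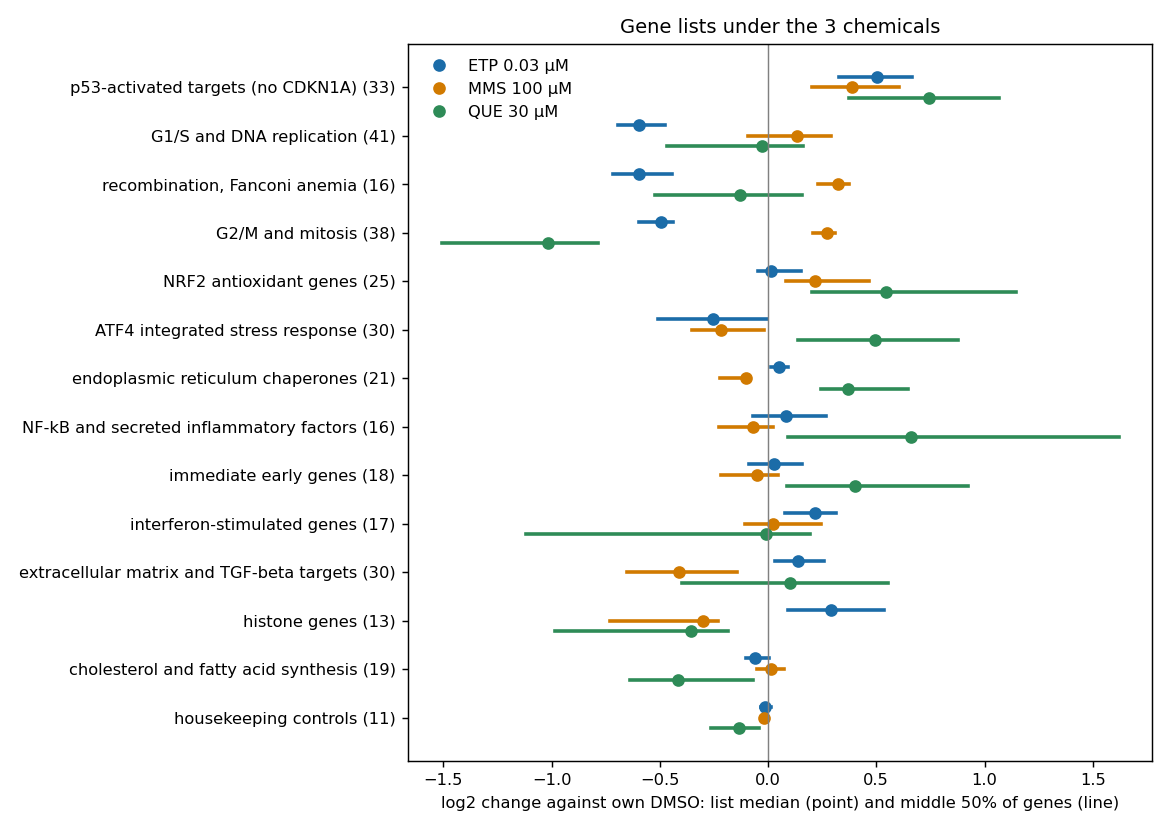
Median log2 response (point) and middle 50% of members (line) for 14 gene lists in the 3 chemicals. The p53 list lay above 0 in all 3, the mitosis list was at -1.02 with QUE, -0.49 with ETP and 0.27 with MMS, and the ATF4 and NF-kB lists lay highest with QUE.

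Of 20 listed NF-kB targets and secreted inflammatory factors 16 were measured, and QUE raised 8 and lowered 1, against 9.25% and 9.3% of all genes. ETP changed 0 of them (3 at an unadjusted limma p under 0.05) and MMS lowered 1, against 1.43% of all genes. QUE exceeded ETP in 6 and was lower in 1, and exceeded MMS in 8 and was lower in 0, against 8.35%, 9.52%, 9.39% and 7.87% of all genes. With the replicate block ETP raised 2 (0.522% of all genes). With the arrays numbered 2 the single falls with MMS, with QUE and in QUE minus ETP were not called (0 in each). Without 1 array, ETP raised 0 or 1, MMS lowered 0 or 1 and QUE lowered 0 or 1. The list's mean level was 6.13 to 6.59 in QUE vehicle arrays and 7.10 to 7.32 in QUE arrays.

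CXCL8, the neutrophil chemokine interleukin-8, is shown with its promoter because it carries an NF-kB site close to the start. The RefSeq window is chr4:73740319-73740618, plus strand, on GRCh38.p14. Capitals mark the match to GGAATTTCC, which begins 91 bases before the start. The search also took GGAAATTCC and the classical kappa B decamer, on both strands. Such a match was found in 0.596% of the 9902 windows, in 6 of 14 list members with a window (42.9%), in 11 of 902 genes raised by QUE (1.22%) and in 0 of 951 lowered by it.
CXCL8: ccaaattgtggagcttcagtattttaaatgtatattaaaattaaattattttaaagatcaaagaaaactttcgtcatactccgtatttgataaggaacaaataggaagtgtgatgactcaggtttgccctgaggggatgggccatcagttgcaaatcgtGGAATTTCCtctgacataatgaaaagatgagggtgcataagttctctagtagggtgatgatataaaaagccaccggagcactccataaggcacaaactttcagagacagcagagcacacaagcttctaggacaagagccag
CXCL8 stood at 9.41, 9.58, 9.41, 8.82 and 9.22 in QUE vehicle arrays and at 11.91, 11.61, 12.21, 12.10 and 12.25 in QUE arrays, which lay clear of them. It ranged from 8.74 to 9.64 in ETP vehicle arrays and from 8.78 to 9.46 in ETP arrays, and from 8.13 to 9.25 and 8.43 to 9.57 in the MMS groups, which overlapped. The QUE response was 2.73 ± 0.23 (limma adjusted p = 4.1e-11), against -0.12 ± 0.23 for ETP and 0.27 ± 0.21 for MMS. QUE exceeded ETP by 2.86 (95% interval 2.20 to 3.51) and MMS by 2.46 (1.83 to 3.09).

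CXCL3, a related chemokine, rose by 2.36 with QUE, against -0.17 with ETP and 0.09 with MMS. TNFAIP3, the deubiquitinase that damps NF-kB, rose by 1.89, against 0.08 and -0.27. IL6, an acute phase cytokine, rose by 2.08 with QUE and was at 0.67 with ETP, a value called only with the replicate block, while its MMS arrays and their vehicle were below background. BCL2A1, an anti-apoptotic NF-kB target, rose by 2.23, and QUE exceeded ETP by 2.55 ± 0.41 and MMS by 2.14 ± 0.40. Of 18 immediate early genes, which transiently follow growth signals, QUE raised 9 and lowered 1 (9.25% and 9.3% of all genes), and ETP and MMS changed 0 (3 at an unadjusted limma p under 0.05 in each). FOSL1, a subunit of AP-1, rose by 1.14 with QUE, and SPRY4, a feedback inhibitor of the MAP kinase cascade, by 1.55.

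The largest gains of QUE over both other chemicals lay outside the p53 list. KLF5, a growth-related transcription factor, ran from 5.61 to 5.90 in QUE vehicle arrays and from 8.65 to 9.04 in QUE arrays. It rose by 3.06 ± 0.13, against 0.01 with ETP and 0.47 with MMS, and QUE exceeded them by 3.05 ± 0.18 and 2.59 ± 0.18 (limma adjusted p = 2.8e-13 and 5.1e-12). ESM1, a proteoglycan of blood vessel lining cells, ran from 7.15 to 8.54 in QUE vehicle arrays and from 11.00 to 11.28 in QUE arrays. It rose by 3.47 ± 0.24, with -0.43 for ETP and 0.18 for MMS. HSD17B2, which inactivates sex steroids, rose by 3.48 and BMP6, a bone morphogenetic protein, by 2.53. For HSD17B2 the MMS arrays and their vehicle were below background. Large falls with QUE also lay outside the p53 and mitosis lists. Taken as each QUE array minus the vehicle mean, BBS7 stood at -3.7 to -1.86 and ANXA10 at -2.97 to -2.14. In the same way BBS7 stood at 0.06 to 0.37 with ETP and -0.24 to 0.49 with MMS, and ANXA10 at -0.28 to 0.36 and -0.02 to 0.68.

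A share of the ATF4 list rose with QUE. All 30 listed members were measured. QUE raised 11 with none lower, against 9.25% of all genes. ETP changed 0 (10 at an unadjusted limma p under 0.05), and MMS lowered 2, against 1.43% of all genes. With the replicate block ETP lowered 3 (0.961% of all genes), and MMS lowered 4 (1.92%) and raised 1 (0.522%). Without 1 array, MMS lowered 1 to 3 and raised 0 to 2. QUE exceeded ETP in 17 and MMS in 14, with none lower in either, against 8.35% and 9.39%. The QUE minus ETP count was 11 without ETP array 3, ETP vehicle array 4 or QUE vehicle array 3, and both counts were lower with the arrays numbered 2, at 8 (4.02% of all genes) and 7 (6.55%). The list medians were -0.25 for ETP, -0.22 for MMS and 0.49 for QUE.

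PPP1R15A, the phosphatase subunit GADD34 that restarts translation, stood at 5.60, 5.32, 5.72, 5.20 and 5.35 in QUE vehicle arrays and at 7.33, 7.31, 7.02, 6.82 and 6.96 in QUE arrays, all higher. It ranged from 5.30 to 5.93 in ETP vehicle arrays and from 5.31 to 5.77 in ETP arrays, and from 4.31 to 4.99 and 4.41 to 4.91 in the MMS groups. The responses were 1.65 ± 0.14 for QUE (limma adjusted p = 1.1e-10), 0.03 ± 0.14 for ETP and -0.03 ± 0.13 for MMS. QUE exceeded ETP by 1.63 (95% interval 1.21 to 2.04) and MMS by 1.68 (1.28 to 2.08). TRIB3, a pseudokinase that feeds back on ATF4, rose by 1.16 with QUE and stood at -0.28 and -0.30. ATF3, a stress factor shared by several pathways, rose by 1.65 with QUE, and was at 0.38 with ETP and 0.67 with MMS, the MMS value being called by limma with the replicate block (limma adjusted p = 0.00093).

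SLC3A2 encodes the heavy chain of the cystine and leucine exchangers, and its partner SLC7A11 the cystine transporter itself. The SLC3A2 window is shown for its ATF4 element, TGATGNAA, which begins 37 bases after the start on the minus strand. It is chr11:62881449-62881748, plus strand, on GRCh38.p14, at the first of 3 listed starts. Capitals mark the element. It was found on either strand in 1.81% of the 9902 windows and in 6 of 24 ATF4 list members (25.0%). Among 902 genes raised by QUE, 18 held it (2.0%), near the share of all windows.
SLC3A2: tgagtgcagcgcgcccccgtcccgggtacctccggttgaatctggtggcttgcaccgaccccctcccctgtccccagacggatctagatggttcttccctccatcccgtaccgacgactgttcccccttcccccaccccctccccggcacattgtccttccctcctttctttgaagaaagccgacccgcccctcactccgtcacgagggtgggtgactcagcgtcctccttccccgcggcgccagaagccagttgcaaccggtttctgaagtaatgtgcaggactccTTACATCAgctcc
SLC3A2 stood at 7.53, 6.86, 7.84, 7.63 and 7.55 in QUE vehicle arrays and at 8.98, 8.03, 8.46, 8.68 and 8.63 in QUE arrays. The groups were apart. It rose by 1.07 ± 0.20 with QUE and was at -0.54 ± 0.20 with ETP and -0.05 ± 0.18 with MMS. QUE exceeded ETP by 1.61 ± 0.28 (limma adjusted p = 5.6e-05) and MMS by 1.12 ± 0.27 (0.0017), the latter 0.75 and not called with the arrays numbered 2. SLC7A11 was at -0.58 with ETP and 0.55 with MMS and rose by 1.68 with QUE. Its differences of 2.26 for QUE minus ETP, 1.13 for QUE minus MMS and -1.13 for ETP minus MMS became 1.44, 0.65 and -0.79 with the arrays numbered 2 and were not called.

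Of 21 chaperones and sensors of the endoplasmic reticulum QUE raised 8, against 9.25% of all genes, and 5 with the arrays numbered 2 (6.61%), and ETP and MMS changed 0 (1 and 6 at an unadjusted limma p under 0.05), though MMS lowered 0 to 2 without 1 array. DNAJB9, a chaperone of the reticulum, rose by 1.27, ERN1, the stress sensor IRE1, by 1.61, and XBP1, the factor that IRE1 activates, by 0.83. QUE exceeded ETP for these by 0.95, 1.38 and 1.15, and MMS by 1.59, 1.87 and 1.32. Of 16 heat shock proteins none was called higher in the 3 responses. QUE lowered 1, against 9.3% of all genes (0 to 4 without 1 array, and 0 with the arrays numbered 2).

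Some NRF2 targets rose with MMS and with QUE. Of 28 listed 25 were measured. ETP raised 1 of them, MMS 5 and QUE 11, with none lower, against 0.331%, 0.439% and 9.25% of all genes, and the medians were 0.01, 0.22 and 0.54. The list's mean level was 7.91 to 8.05 in MMS vehicle arrays and 8.30 to 8.44 in MMS arrays, and 8.24 to 8.62 and 9.05 to 9.18 for QUE, with no overlap in either. QUE exceeded ETP in 11 and MMS in 9 and was below MMS in 1, against 8.35%, 9.39% and 7.87% of all genes. ETP was below MMS in 4, against 0.779%. With the arrays numbered 2, QUE exceeded ETP in 2 (4.02%) and MMS in 4 (6.55%), and ETP was below MMS in 1 (0.0746%). The antioxidant element TGACNNNGC, searched on both strands, was found in 15.3% of the 9902 windows and in 4 of 17 list members (23.5%). Of genes raised by MMS 16.7% held it, and of those raised by QUE 15.1%.

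AKR1C1, an aldo-keto reductase of steroids and lipid aldehydes, rose to a like degree with MMS and QUE. It stood at 5.41, 5.29, 5.33, 5.39, 5.54 and 6.13 in MMS vehicle arrays and at 8.02, 7.83, 8.31, 7.65, 7.16 and 8.04 in MMS arrays. It stood at 5.23, 7.13, 5.74, 5.28 and 5.49 in QUE vehicle arrays and at 7.86, 8.23, 8.50, 8.59 and 8.14 in QUE arrays. ETP arrays ranged from 5.41 to 7.48 and their vehicle from 5.17 to 6.94, and only these overlapped. AKR1C1 rose by 2.32 ± 0.31 with MMS (limma adjusted p = 9.8e-06) and 2.49 ± 0.34 with QUE (5.5e-07), and was at 0.22 ± 0.34 with ETP. QUE minus MMS was 0.17 (95% interval -0.78 to 1.11), which leaves room for a difference of over 1.5-fold either way. QUE minus ETP of 2.27 and ETP minus MMS of -2.10 were called, and became 1.22 and -1.55 and were not called with the arrays numbered 2.

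NQO1, the quinone reductase, set MMS apart from QUE. It stood at 9.79, 9.76, 9.92, 9.88, 9.76 and 9.95 in MMS vehicle arrays and at 10.78, 10.57, 10.73, 10.80, 10.58 and 10.70 in MMS arrays, with no overlap. It ranged from 9.99 to 10.33 and 10.14 to 10.49 in the QUE groups and from 10.01 to 10.45 and 10.13 to 10.64 in the ETP groups, which overlapped. NQO1 rose by 0.85 ± 0.08 with MMS (limma adjusted p = 4.6e-08), and was at 0.20 ± 0.09 with QUE and 0.04 ± 0.09 with ETP. MMS exceeded QUE, the difference QUE minus MMS being -0.64 (95% interval -0.88 to -0.40), and ETP minus MMS was -0.81 (-1.05 to -0.57). HMOX1, heme oxygenase, went the other way, at -0.28 ± 0.28 with MMS, 0.29 ± 0.31 with ETP and a rise of 1.87 ± 0.31 with QUE. TXNRD1, thioredoxin reductase, rose by 0.86 ± 0.05 with QUE and was at 0.21 with MMS and -0.01 with ETP. AHR, the receptor for planar aromatic compounds, rose by 0.92 with QUE. Its classical target CYP1A1 stayed at or around background in all 6 groups, with responses of 0.16, 0.26 and 0.22 that were not called. Of 7 measured genes on the AHR list, which also holds NQO1, QUE raised 1, AHR itself, and lowered 1 (9.25% and 9.3% of all genes). It lowered 0 with the arrays numbered 2. AHRR stood at -0.88 to -0.64 in the QUE arrays against its vehicle mean.

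The list of mitosis genes lay lowest with QUE, and it also lay below 0 with ETP. All 38 listed members were measured. QUE lowered 34 of them, against 9.3% of all genes, with a median of -1.02. ETP and MMS called 0 (24 and 3 at an unadjusted limma p under 0.05), with medians of -0.49 and 0.27. All 38 values were below 0 with ETP and 37 were above 0 with MMS. With the replicate block ETP lowered 8 (0.961% of all genes). It lowered 9 without QUE array 3, 2 without ETP array 1 and 1 without ETP array 3. QUE was below ETP in 13 and below MMS in 35, against 9.52% and 7.87% of all genes. ETP was below MMS in 2, against 0.779% of all genes, and in 30 with the replicate block, against 3.02%. It was below MMS in 28 without QUE array 3, in 6 without ETP array 1 and in 4 without MMS vehicle array 3. The count was 0 without any 1 of 10 other arrays and 0 with the arrays numbered 2. The mean level of the list was 7.03 in QUE array 3 and 8.43 to 8.98 in the other QUE arrays, against 9.30 to 9.89 in their vehicle. Without QUE array 3, QUE lowered 24 with a median of -0.67 and was below ETP in 10 and below MMS in 32.

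DLGAP5, a spindle assembly protein, had the largest fall of the list. Its window is shown because it holds the cell cycle homology region, TTTGAA or TTCGAA, through which mitotic genes are repressed. It is chr14:55191536-55191835, minus strand, on GRCh38.p14, and capitals mark 3 matches, read on both strands, between 138 bases before and 3 after the start. This short element was found in 11.4% of the 9902 windows, in 22 of 31 mitosis list members (71.0%), in 178 of 951 genes lowered by QUE (18.7%) and in 92 of 902 raised by it (10.2%).
DLGAP5: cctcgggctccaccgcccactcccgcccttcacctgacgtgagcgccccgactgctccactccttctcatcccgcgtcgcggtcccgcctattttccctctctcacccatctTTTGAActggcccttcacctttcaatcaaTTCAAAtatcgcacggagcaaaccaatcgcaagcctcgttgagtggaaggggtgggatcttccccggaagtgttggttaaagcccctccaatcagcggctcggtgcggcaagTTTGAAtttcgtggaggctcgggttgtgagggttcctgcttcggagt
DLGAP5 stood at 9.73, 9.66, 9.30, 9.57 and 9.63 in QUE vehicle arrays and at 7.43, 3.91, 6.71, 7.74 and 7.19 in QUE arrays, all lower and 1 of them below background. It ran from 9.73 to 9.99 in ETP vehicle arrays and from 9.05 to 9.54 in ETP arrays, and from 8.75 to 9.35 and 8.97 to 9.42 in the MMS groups. The QUE response was -2.98 ± 0.37 (limma adjusted p = 8.5e-08), QUE minus ETP -2.45 and QUE minus MMS -3.13. Without QUE array 3 these were -2.31, -1.77 and -2.46, all called. The ETP and MMS responses were -0.54 and 0.15.

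KIF20A, a kinesin of the midzone, fell by 2.38 with QUE and BUB1, a checkpoint kinase, by 2.36. QUE minus ETP was -2.02 for KIF20A and -1.88 for BUB1, and QUE minus MMS -2.72 and -2.65. Without QUE array 3, BUB1 fell by 1.92, and the 6 values of these genes were still called. PLK1, the mitotic entry kinase, fell by 1.56 with QUE to below background and was at -0.63 with ETP and 0.32 with MMS, and its ETP fall was called with the replicate block (limma adjusted p = 0.0016). For PLK1 QUE minus MMS was -1.87. Of 11 tubulins, QUE lowered 3, against 9.3% of all genes, and TUBA1A fell by 0.90.

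**Figure D4:**
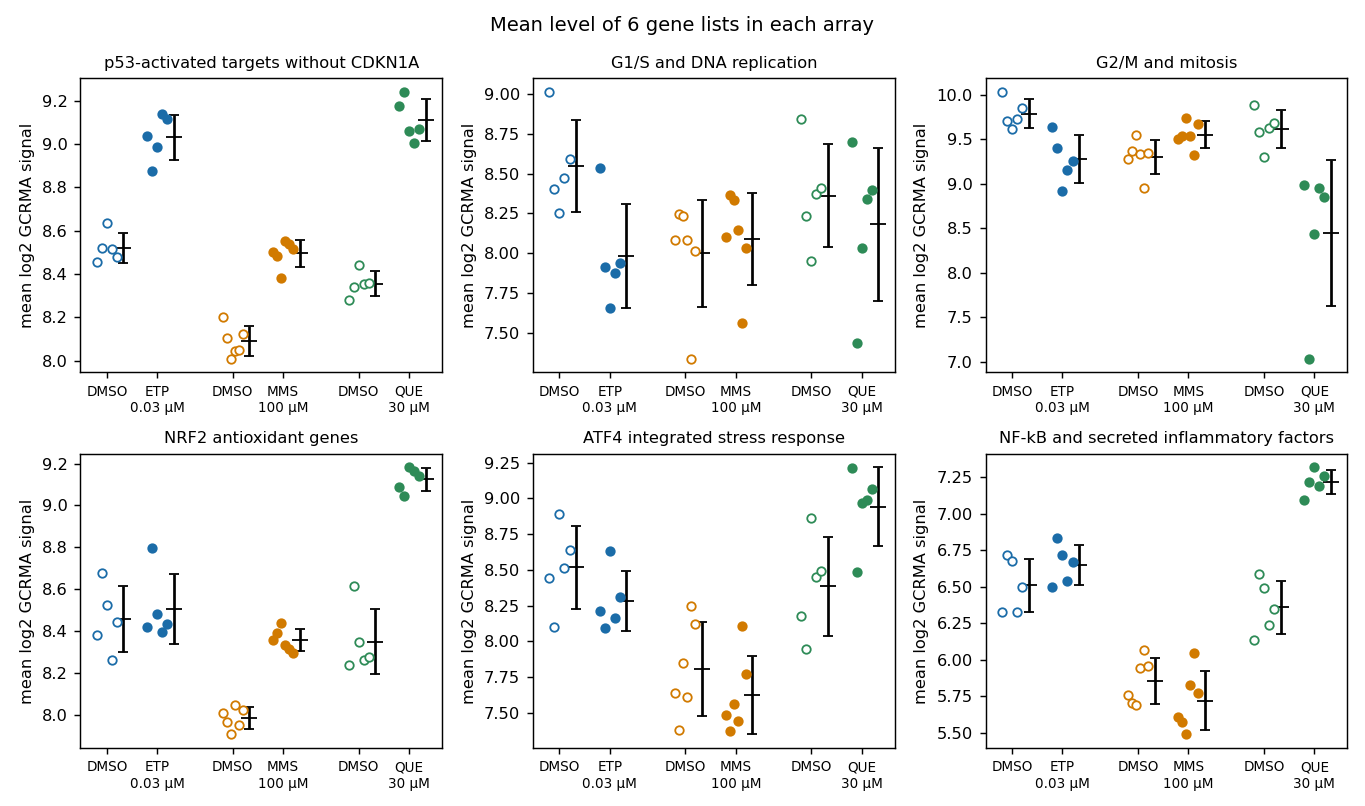
Mean log2 level of 6 gene lists in each of the 32 arrays, open for vehicle and filled for dosed, with the group mean ± SD (n = 5 or 6). The p53 list, plotted without CDKN1A, is apart from its vehicle in all 3 chemicals, and QUE array 3 is the low point of the mitosis list at 7.03.

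Of 42 listed genes of DNA replication 41 were measured. ETP lowered 6 of them, against 0.124% of all genes, MMS changed 0 (7 at an unadjusted limma p under 0.05), and QUE raised 3 and lowered 9 (9.25% and 9.3%). QUE raised 1 with the arrays numbered 2 and 1 without QUE array 1. MMS lowered 2 without MMS vehicle array 5. The medians were -0.60, 0.13 and -0.03. Of the 41 values 1 was above 0 with ETP and 27 were above 0 with MMS. ETP lowered 23 with the replicate block (0.961% of all genes) and 0 with the arrays numbered 2. It lowered 13 without ETP array 1, 10 without QUE array 3, 3 without ETP array 3, 2 without ETP vehicle array 6, and 0 without ETP array 4, 5 or 6 or ETP vehicle array 1. ETP was below MMS in 4 members (0.779% of all genes), in 28 with the block (3.02%) and in 0 with the arrays numbered 2. QUE was above ETP in 4, against 8.35%, in 16 with the block, against 9.42%, and in 0 with the arrays numbered 2. It was above ETP in 9 without ETP array 1, in 12 without QUE array 3 and in 7 without QUE vehicle array 1. QUE was below ETP in 0, or in 1 with the block. The difference ETP minus MMS went from 4 to 9 without ETP array 1, 10 without QUE array 3, 2 without ETP array 6 and 1 without ETP vehicle array 1.

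MCM6, a subunit of the replicative helicase, was picked after its values were seen. Its window holds E2F sites and is shown because such sites were frequent among the genes lowered by ETP. It is chr2:135876394-135876693, minus strand, on GRCh38.p14. Capitals mark 4 matches that overlap in pairs, between 152 and 86 bases before the start, to TTTCCCGC, TTTGGCGC or TTTCGCGC on either strand. These were found in 4.68% of the 9902 windows and in 20 of 33 replication list members (60.6%). They were found in 6 of 10 genes lowered by ETP (60.0%), a set that includes list members. Among 951 genes lowered by QUE, 50 held them (5.26%).
MCM6: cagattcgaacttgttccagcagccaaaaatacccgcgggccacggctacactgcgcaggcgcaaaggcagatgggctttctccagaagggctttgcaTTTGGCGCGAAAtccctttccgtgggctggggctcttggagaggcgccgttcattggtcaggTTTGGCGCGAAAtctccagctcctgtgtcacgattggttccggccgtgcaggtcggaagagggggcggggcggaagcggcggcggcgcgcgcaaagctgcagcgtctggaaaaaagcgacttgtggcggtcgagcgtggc
MCM6 stood at 11.01, 10.30, 10.46, 10.55 and 10.74 in ETP vehicle arrays and at 10.33, 9.79, 9.75, 9.83 and 9.90 in ETP arrays, which overlapped by 1 array. The ETP response was -0.69 ± 0.18 (limma adjusted p = 0.047) and became -0.53 and not called with the arrays numbered 2. It was lost in 22 of the fits without 1 array, at -0.73 to -0.59 and adjusted p up to 0.20, and had adjusted p = 1e-05 with the replicate block. MCM6 fell by 0.90 ± 0.18 with QUE (0.00012) and was at -0.49 ± 0.16 with MMS. MCM2, MCM5 and CDCA7, also named after their values were seen, were at -0.76, -0.66 and -0.81 with ETP and lost their calls without any 1 of 4 to 7 arrays (adjusted p up to 0.16).

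CDT1, which loads the helicase and is destroyed as replication starts, was at -0.46 with ETP and 0.46 with MMS. ETP minus MMS was -0.92 ± 0.20 (limma adjusted p = 0.0091) and -0.77, not called, with the arrays numbered 2. RRM2, the ribonucleotide reductase subunit, fell by 1.00 with QUE, and QUE minus MMS was -1.29. Of 22 recombination and Fanconi anemia genes 16 were measured. All 16 values were below 0 with ETP and above 0 with MMS, with medians of -0.60 and 0.32, and neither called any (11 and 1 at an unadjusted limma p under 0.05). ETP was below MMS in 2 (0.779% of all genes), in 13 with the replicate block (3.02%) and in 0 with the arrays numbered 2. Without 1 array the count was 0 to 11. It was 11 without QUE array 3, 7 without ETP array 1 and 5 without ETP vehicle array 4. It was 0 without ETP array 4 or 5, ETP vehicle array 1 or 6, MMS array 3 or MMS vehicle array 5. ETP lowered 8 with the block (0.961% of all genes), 4 without QUE array 3 and 2 without ETP array 1. The list's mean level was 6.15 in QUE array 3 and 7.11 to 7.63 in the other QUE arrays, against 6.91 to 7.75 in their vehicle. Its median QUE response was -0.13, and 0.19 without QUE array 3. FANCM, a translocase at stalled forks, fell by 1.20 with QUE, and QUE minus MMS was -1.57 ± 0.26.

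In some genes of the extracellular matrix MMS differed from both others. Of 32 listed 30 were measured. MMS lowered 8, against 1.43% of all genes, with none higher and a median of -0.41. ETP raised 1, against 0.331% (0 without ETP vehicle array 1), and QUE raised 6 and lowered 4 (9.25% and 9.3%). MMS lowered 5 and QUE raised 2 with the arrays numbered 2. ETP was above MMS in 10 with none lower, against 1.63%. QUE was above MMS in 10, against 9.39%, and below it in 1, against 7.87%, or in 3 with the replicate block (8.64%). The count for ETP minus MMS was 4 with the arrays numbered 2, 5 without ETP vehicle array 1 and 6 without MMS array 3 or 6.

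TIMP3, an inhibitor of matrix metalloproteinases, stood at 5.17, 5.36, 5.08, 5.13, 5.64 and 5.54 in MMS vehicle arrays and at 4.23, 4.16, 3.83, 3.48, 4.43 and 4.22 in MMS arrays, all lower and 2 below background. It ran from 6.88 to 7.61 in ETP vehicle arrays and from 7.15 to 7.52 in ETP arrays, and from 6.76 to 7.24 and 6.61 to 7.09 in the QUE groups, which overlapped. TIMP3 fell by 1.26 ± 0.14 with MMS (limma adjusted p = 4e-07), and was at 0.13 with ETP and -0.25 with QUE. ETP exceeded MMS by 1.40 (95% interval 0.98 to 1.81) and QUE exceeded MMS by 1.02 (0.60 to 1.44).

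Outside the list, TMEM45A, a transmembrane protein, moved in opposite directions with MMS and QUE. It stood at 5.87, 6.30, 5.85, 6.93, 6.44 and 6.35 in MMS vehicle arrays and at 4.46, 5.02, 4.39, 5.24, 5.39 and 4.60 in MMS arrays. It ran from 6.65 to 7.51 in QUE vehicle arrays and from 7.80 to 8.41 in QUE arrays. It fell by 1.44 ± 0.19 with MMS, rose by 1.06 ± 0.20 with QUE and was at 0.32 ± 0.20 with ETP, and QUE exceeded MMS by 2.50 ± 0.28 (limma adjusted p = 4.3e-08). LRRC17, a secreted leucine-rich repeat protein, fell by 1.70 with MMS and 1.72 with QUE and was at 0.27 with ETP. Its QUE minus MMS difference was -0.02 (95% interval -0.58 to 0.55), and ETP exceeded MMS by 1.97 ± 0.28. BICC1, an RNA-binding protein, fell by 1.35 with MMS, and ROR1, a WNT receptor, by 1.21 to below background, and ETP exceeded MMS for them by 1.80 and 1.69. Within the list, TGFBI, a matrix protein induced by TGF-beta, fell by 1.61 with QUE and was at 0.35 with ETP and -0.21 with MMS. COL1A1, a chain of type I collagen, fell by 1.68 with QUE and was at -0.84 with MMS, a value called with the replicate block.

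SPANXC, a testis antigen encoded on the X chromosome, rose with MMS by more than with either other chemical. It ran from 4.47 to 4.87 in MMS vehicle arrays and from 6.24 to 6.81 in MMS arrays, with no overlap, and rose by 1.79 ± 0.20 (limma adjusted p = 4.7e-07). Its responses to ETP and QUE were 0.27 and 0.08, QUE minus MMS was -1.71 ± 0.29 and ETP minus MMS -1.52 ± 0.29. SPANX genes are near-identical copies, so probes may read several of them. Of 13 measured histone genes, MMS lowered 4 and QUE 6, against 1.43% and 9.3% of all genes, and the ETP median was 0.29. MMS lowered 1 with the arrays numbered 2. ETP exceeded MMS in 6 of the 13, against 1.63% of all genes, and in 1 with the arrays numbered 2 (0.447%). MMS lowered 2 histone genes without MMS array 3. H2BC21, a histone H2B gene, was at 0.76 with ETP, -0.64 with MMS and -1.58 with QUE, and its difference of 1.40 for ETP minus MMS became 0.98 and was not called with the arrays numbered 2.

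Interferon-stimulated genes gave a pair of opposite calls. IFI44, an interferon-induced cytoplasmic protein, ran from 3.94 to 5.00 in MMS vehicle arrays and from 5.25 to 6.00 in MMS arrays, and from 4.82 to 5.44 in QUE vehicle arrays and 3.66 to 4.11 in QUE arrays. It rose by 1.16 ± 0.14 with MMS and fell by 1.21 ± 0.15 with QUE to below background, and QUE minus MMS was -2.37 ± 0.21 (limma adjusted p = 7.4e-10). Of 17 measured members QUE lowered 7 and raised 1 (9.3% and 9.25% of all genes). It raised 0 with the arrays numbered 2 and 0 to 3 without 1 array. MMS raised 1 (2 without MMS vehicle array 6) and lowered 1, against 0.439% and 1.43% of all genes. ETP changed 0 (5 at an unadjusted limma p under 0.05). IFIT1 fell by 1.57 with QUE to below background and IFI35 by 1.28, and neither was called with MMS. OAS1, which makes the activator of RNase L, fell by 0.80 with MMS. KRT8 and KRT18, keratins that this line also expresses, fell by 1.12 and 0.85 with QUE. DHCR7, the last enzyme of cholesterol synthesis, fell by 1.05 with QUE. In all QUE lowered 5 of 19 members of its list, against 9.3% of all genes. It lowered 8 without QUE array 5 or QUE vehicle array 3. The 11 housekeeping genes and 6 metallothioneins measured were called in none of the 6 tests, with up to 6 and 1 at an unadjusted limma p under 0.05.

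The called genes of the 3 responses overlapped in part. ETP and MMS shared 19 genes, all higher, which were 34.5% of the ETP genes and 8.41% of the MMS genes. ETP and QUE shared 27 in the same direction (49.1% and 1.21%) and none in opposite directions. MMS and QUE shared 106 in the same direction (46.9% and 4.73%), 29 higher and 77 lower, and 18 in opposite directions (7.96% and 0.804%). TMEM45A and IFI44 were among these 18. Across the 12070 genes r was -0.19 between the ETP and MMS responses, 0.11 between ETP and QUE and 0.22 between MMS and QUE. These are descriptions, since genes are not independent replicates and arrays of ETP and QUE of equal number were correlated, as given above.

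**Figure D5:**
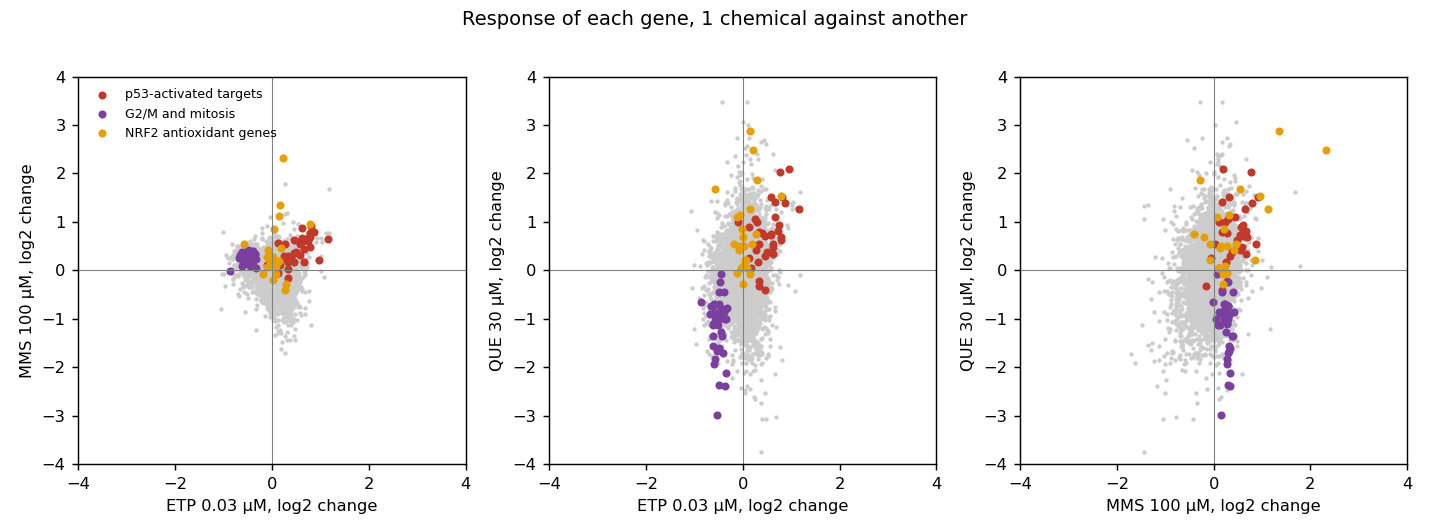
Log2 responses of 12070 genes for each pair of chemicals, with p53, mitosis and NRF2 list members coloured. Most p53 members lie above 0 on both axes in each panel, and the mitosis members lie below 0 on the QUE axis.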

How the data were processed

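The deposited values are log2 GCRMA signals per probe set that the authors made with Partek, per the submitters' processing notes. The versions, and whether all arrays were normalized together, are not given in the sources used here. Biotin-labelled RNA was hybridised to Affymetrix 3' arrays, per the labels' protocols. GCRMA subtracts a sequence-based background, so levels under 4 were read as background and changes near it as uncertain in size.

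Of 54613 probe sets, 40914 had 1 gene symbol, 864 several and 12835 none. Those at 4 or more in at least 5 of 145 arrays were kept (27102, of which 22765 were named), and the probe set with the highest mean stood for each of 12070 genes. Repeat arrays of a replicate were averaged. limma 3.58.1 (R 4.3.3) fitted the 6 group means over 32 arrays with a mean-variance trend. Calls needed 1.5-fold and an adjusted p (Benjamini-Hochberg, each contrast by itself) under 0.05. The number of arrays limits the precision. The fit was also tested on simulated data with independent noise, where 200 of 12070 genes were shifted by 1 or 1.5 log2 in the QUE arrays only. It recovered 97.5% of the 200 for QUE, 91.0% for QUE minus ETP and 92.5% for QUE minus MMS. These shifts exceed the fold limit, and neither the pairing of arrays nor single deviant arrays were simulated. The rates therefore do not give the power for smaller changes in these arrays.

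Replicate numbers come from the titles. Dosed and vehicle arrays of equal number deviated together, with a mean r of 0.51 in ETP (lowest 0.29), 0.59 in MMS (0.37) and 0.32 in QUE (0.15). Unequal numbers gave -0.12, -0.11 and -0.08, so the numbers pair the samples. The fit without the block is the one reported, so its p-values leave this pairing out. With the block the ETP count was 179 and the ETP minus MMS count 883, both higher. The blocked value is printed where it changes a call or moves a count by over 1.5 times.

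Named genes were the 8 called with the largest difference in each direction of each pairwise comparison (dosed arrays not overlapping, a group mean of 4 or more in each chemical), the 3 called members of each list with the largest difference, 12 genes shared by all 3 responses, and CDKN1A, MDM2, GDF15, TP53INP1, HMOX1, CYP1A1, ATF3 and TXNRD1. Not every gene picked by these rules is described above. The doses, gene lists and rules were chosen with earlier results of these data known, and the motifs after the responses were seen. Promoters are RefSeq's on GRCh38.p14. Alternatives changed the filter, probe set rule, normalization, fold limit, adjustment, block and arrays. The titles of 2 arrays carry a suffix whose meaning is not given, 1 in the ETP group and 1 in the QUE vehicle group, and both arrays were kept.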

Additional observations from a re-analysis of the deposited data

Results flagged for a closer look

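Of 90 groups of values tested, 8 held an array whose gap to the nearest other exceeded Dixon's limit (0.71 for 5 arrays, 0.625 for 6), and chance gives about 1 in 20. QUE array 3 gave 3 of the 8. Its mean level of the mitosis list was 7.03, with the nearest other QUE array at 8.43. Its HMOX1 level was 9.61, with the nearest at 8.58, and its TXNRD1 level was 12.39, with the nearest at 12.58. CDKN1A stood at 9.45 in ETP array 4, below the nearest at 9.74. MDM2 stood at 9.42 in QUE vehicle array 4, below the nearest at 9.76. CYP1A1 stood at 3.94 in QUE array 1, above the nearest at 3.47, both below background. The mean level of the replication list was 7.34 in MMS vehicle array 5, with the nearest at 8.02. The mean level of the NRF2 list was 8.80 in ETP array 3, with the nearest at 8.48.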

How the results depend on the processing

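None of the 400 called results of named genes changed sign. The fold limits, the adjustment over contrasts, the trend, the block and the fit of all 24 groups leave the log2 values unchanged. No sign could change under these. With the replicate block the ETP count was 179 and that of ETP minus MMS 883, and all 400 kept their call. Of 600 counts over gene lists the block moved 30 by over 1.5 times and the arrays numbered 2 moved 55, and where a list's count is given above, its moved value stands beside it. With the arrays numbered 2, the counts were 17 for ETP, 1071 for QUE minus ETP and 63 for ETP minus MMS, 113 of the 400 lost their call, and 0 p53 list members were called in ETP minus MMS. With all 24 groups in 1 fit, ETP gave 31, ETP minus MMS 105, and 55 calls were lost. Adjusting p over the contrasts together gave 126 for ETP and 574 for ETP minus MMS. Without a fold limit the counts were 141 for ETP, 728 for MMS, 5721 for QUE, 3785 for QUE minus ETP, 4001 for QUE minus MMS and 33 for all 3 chemicals. With a limit of 2-fold they were 8, 37, 665, 717, 661 and 1, and 90 for ETP minus MMS. Leaving out 1 array gave 30 to 110 for ETP and 167 to 533 for ETP minus MMS, and 325 of the 400 calls held without any 1 array. The mean of a gene's probe sets ended 29 calls, leaving number 2 out of MMS too 26, no filter 8, quantile normalization 5 and no trend 3. The cause of these changes was not tested. Signal near background limits the size of changes in low genes, and 5 or 6 arrays a group limit small differences.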

Other observations

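Along the QUE doses, some genes outside the p53 list, described above for their 30 µM response, had moved at doses where CDKN1A had moved little. Other p53 list members are not given at these doses. These values are a description without a test, and all QUE doses share the same vehicle arrays. CDKN1A stood at 0.01, -0.12 and 0.12 at 1, 3 and 10 µM. CXCL8 stood at 1.11, 1.66 and 2.56 at these doses, AKR1C1 at 0.96, 2.12 and 3.19, ESM1 at 0.52, 0.91 and 2.56 and KLF5 at 0.17, 0.43 and 2.00. HMOX1 stood at 0.06, 0.22 and 1.90 and CXCL3 at 0.25, 0.59 and 2.21. At 60 µM CXCL8 was at 2.31 and AKR1C1 at 1.39, both below their 30 µM values of 2.73 and 2.49, while DLGAP5 went from -0.52 at 10 µM to -2.98 at 30 and -4.26 at 60 µM. Along the MMS doses, AKR1C1 stood at 0.25, 2.32 and 4.69 at 30, 100 and 300 µM. SPANXC reached 3.82 at 300 µM, LRRC17 -4.10 and TIMP3 -2.11.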
